A study of Mus musculus with 6 samples.

Results

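The genes described here are 10 members of the non-canonical Wnt and planar cell polarity pathway, Ror1, Ror2, Ptk7, Ryk, Vangl1, Vangl2, Celsr1, Celsr2, Prickle1 and Prickle2, out of 36303 gene names on the array. They were chosen by name, with earlier results of these data known. All probes that carry these names were taken, which gave 15 of 55681 probes. RNA came from prostates of male FVB/N mice aged 6 days that carry the Tg 11.5kb-GFP transgene, in which the s-SHIP promoter drives GFP. Both populations came from such mice, without treatment, and both were gated as Lin- Sca-1+ CD49f+ cells (LSC cells, the basal and stem cell fraction). They differed by GFP only, with 3 independent samples of LSC GFP+ cells and 3 of LSC GFP- cells, each on its own array with a single colour. The same promoter also marks vascular smooth muscle cells in these mice. The study found those cells brighter in GFP, negative for CD24, and with little or no Sca-1 and CD49f. The number of animals behind each sample was not given in the sources used here.

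Wnt ligands can act without β-catenin, through the receptors Ror1, Ror2, Ryk and Ptk7, on the cytoskeleton, on Jun kinases and on calcium. The planar polarity proteins orient cells within the plane of an epithelium: Celsr cadherins bridge neighbouring cells, Vangl membrane proteins and the cytoplasmic Prickle proteins gather on one side of each cell, and Frizzled and Dishevelled gather on the other. In branching glands such as the prostate and the mammary gland, Wnt5a is known as a regulator of duct growth. In the mammary gland, Ror2 is known as a regulator of branching.

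The probes are oligonucleotides of 60 bases, placed on the mm9 build by the array design, and what a probe reads depends on where in the transcript it lies. Those of the genes that differed between the populations are shown, together with a Celsr2 probe for comparison, 5′ to 3′, with any AATAAA, the letters of the common polyadenylation signal, in capitals. The first Ror1 probe (chr4:100114117-100114176, plus strand) and the second Celsr2 probe (chr3:108198512-108198571, minus strand) are given whole, and the other 4 as a stretch of 30 bases.
Ror1 A_51_P453446: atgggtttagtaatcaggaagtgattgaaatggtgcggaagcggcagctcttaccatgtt
Ror1 A_52_P212025: tataagatgcacAATAAAtcctagaaatat
Ror2 A_66_P131398: tgtttcctgggtttagaatgttcaaaagga
Celsr1 A_51_P440743: gtgtatttattactgttcagcactggatgg
Celsr2 A_52_P350148: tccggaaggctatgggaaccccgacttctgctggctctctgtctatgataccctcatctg
Prickle1 A_55_P1954758: agggaggtgtttAATAAAggcttAATAAAc
AATAAA was present in 3 of the 15 member probes, 1 each of Ror1, Celsr2 and Prickle1, and in 10.1% of all 55681 probes. The second Ror1 probe lies at chr4:100116284-100116343, further along the plus strand than the first. The Ror2 probe lies at chr13:53204795-53204854, the Celsr1 probe at chr15:85729381-85729440 and the Prickle1 probe at chr15:93329546-93329605, all on the minus strand. An annotation of exons for mm9 was not used here.

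Of the 10 genes, 9 could be tested, and Ror1 and Ror2 were higher in LSC GFP+ cells while Celsr1 and Prickle1 were lower. A gene was represented by its brightest probe, and a call means an unadjusted limma p under 0.05. The share of all 25625 genes tested that passed the same threshold was 3.38% for higher and 4.28% for lower. Ror1 and Ror2 had been singled out by the study from these same samples, so their 2 calls are not independent evidence. The study also measured Ror1, though not Ror2, by RT-qPCR and reported it higher in LSC GFP+ cells, a measurement outside these array data. The other 5 genes, Ptk7, Ryk, Vangl1, Vangl2 and Celsr2, did not pass. No member passed after Benjamini-Hochberg adjustment over all probes, where the limma adjusted p ranged from 0.122 to 0.996, and among all 37005 probes a single one did (0.00270%). The median log2 difference over the 9 genes was 0.17, against -0.0069 over all genes, and 6 of the 9 were above 0. That median was 0.092 with normexp background correction and 0.26 when a gene's probes were averaged. Counted over probes, 13 of 15 were well above background on all 6 arrays and 14 were tested. Of these, 3 were higher and 2 lower, against 3.38% and 4.53% of all probes. The Ror2 probe, counted as higher, entered the test through the LSC GFP+ arrays alone, so its call was favoured by the filter. Among the probes tested, the populations did not overlap for 7 that were higher in LSC GFP+ cells and 2 that were lower, against 6.61% and 5.65% of all probes tested. The 7 were probes of Ror1, Ror2, Vangl1 and Vangl2, so some genes were counted more than once. By gene, 3 of 9 were higher and 2 lower without overlap, against 1664 and 1377 of 25625 genes. RNA from a mass of sorted cells was measured, so more cells of a kind and more RNA per cell cannot be told apart in any of these differences.

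**Figure D1:**
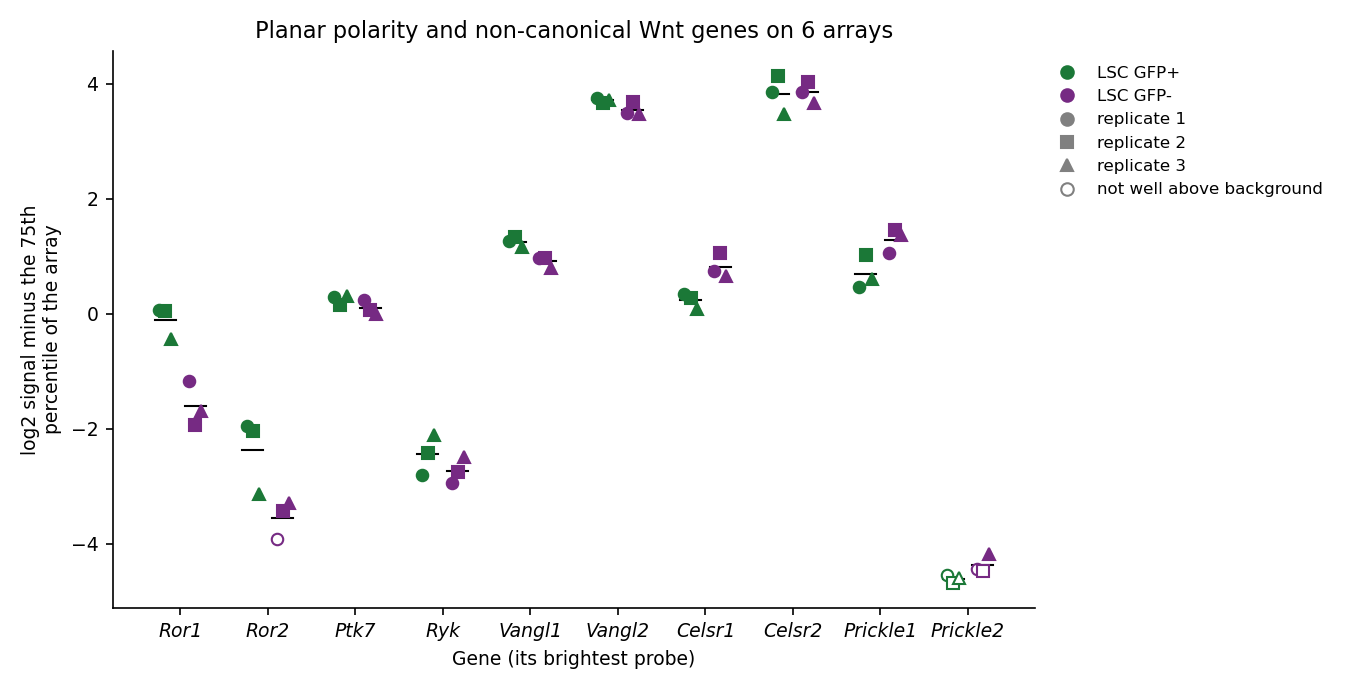
Signal of the 10 genes on each of the 6 arrays, as the log2 signal of the brightest probe minus the 75th percentile of the array (vertical axis), by gene (horizontal axis). Symbols mark the replicate number, black bars the mean of 3 arrays, and open symbols arrays on which the probe was not well above background. The Ror1 arrays part widely, with LSC GFP+ at -0.44 and above and LSC GFP- at -1.18 and below. Heights of different genes are readings of different probes and are not to be compared.

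Ror1, a receptor tyrosine kinase-like protein that binds Wnt5a, was measured by 2 probes. All values that follow are log2 signals minus the 75th percentile of the array, for replicates 1, 2 and 3. The first probe read 0.07, 0.04 and -0.44 on the LSC GFP+ arrays and -1.18, -1.94 and -1.68 on the LSC GFP- arrays. Every LSC GFP+ array was thus above every LSC GFP- array, and the difference was 1.49 (SE 0.26, 95% confidence interval 0.88 to 2.10), or 2.81-fold (limma adjusted p = 0.122). The second probe, the one with the AATAAA letters, read -1.07, -1.22 and -1.63 against -2.83, -4.21 and -2.80. Here too the arrays did not overlap, LSC GFP- replicate 2 lay lowest, and the difference was 1.97 (SE 0.39, adjusted p = 0.146 in limma). With normexp background correction, which raises dim signal, the second difference was 0.90 and still passed. The 2 probes thus moved the same way. The ratio of the first to the second differed by -0.48 between the populations, which an exact permutation test over the arrays did not tell from 0 (p = 0.4, two-sided).

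Ror2, the closest relative of Ror1 and likewise a receptor for Wnt5a, was measured by 1 probe. The probe read -1.95, -2.04 and -3.14 in LSC GFP+ cells and -3.92, -3.42 and -3.28 in LSC GFP- cells. LSC GFP+ replicate 3 lay only 0.15 above the highest LSC GFP- array, and on LSC GFP- replicate 1 the probe was not well above background. The difference was 1.17 (SE 0.35, 95% confidence interval 0.35 to 1.98, limma adjusted p = 0.350), or 2.24-fold. This size rests in part on the LSC GFP- array that was not well above background. The probe entered the test through the LSC GFP+ arrays alone, so its call was favoured by the filter. When all 6 arrays must be above background, the probe is not tested. With no filter it passed the unadjusted threshold (limma adjusted p = 0.656). By replicate number the differences were 1.97, 1.39 and 0.15. The call depended on the handling of dim signal: with normexp background correction the difference was 0.37 and no longer passed (limma adjusted p = 0.791). It did not pass with the test named in the study's methods either.

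The ratio of Ror1 to Ror2 within an array was 2.02, 2.08 and 2.70 on the log2 scale in LSC GFP+ cells and 2.74, 1.48 and 1.60 in LSC GFP- cells. These values overlapped, and the difference of 0.32 gave p = 0.6 in the exact permutation test, in which 3 arrays against 3 cannot go below 0.1.

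RefSeq (GRCm38.p6) gave 12 transcription starts for 8 of the 10 genes, and Celsr1 and Vangl1 were not in that table. The 250 bases before the start of Ror1 (chr4:100095541-100095790, plus strand) and of Ror2 (chr13:53286125-53286374, minus strand), the genes that were higher, are shown. Capitals mark CTTTGA, the core letters bound by TCF and LEF factors, GGGCGG, the GC box, and CACCTG, an E-box, each searched on both strands.
Ror1: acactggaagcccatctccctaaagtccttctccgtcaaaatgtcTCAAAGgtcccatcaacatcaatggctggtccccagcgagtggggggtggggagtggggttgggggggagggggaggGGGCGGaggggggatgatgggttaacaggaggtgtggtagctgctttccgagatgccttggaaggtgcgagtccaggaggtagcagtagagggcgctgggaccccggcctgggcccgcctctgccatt
Ror2: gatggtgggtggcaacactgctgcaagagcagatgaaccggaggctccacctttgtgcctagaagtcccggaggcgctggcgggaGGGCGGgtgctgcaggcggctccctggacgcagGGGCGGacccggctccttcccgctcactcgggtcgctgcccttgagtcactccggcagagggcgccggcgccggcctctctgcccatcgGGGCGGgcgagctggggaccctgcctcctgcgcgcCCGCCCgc
The Ror1 window held 1 CTTTGA on the reverse strand and 1 GC box, and the Ror2 window held 4 GC boxes. Among all 12 windows, CTTTGA was found in 2, one of Ror1 and one of Prickle2, against 13.8% of 32851 windows of the same length. The GC box was found in 10 of 12, against 32.7%, and the E-box in 3 of 12, against 17.2%. Both windows of Prickle1, a gene that was lower, also held GC boxes, 3 and 2. A relation of these letters to the differences was not tested. G and C made up 62.4% of the Ror1 window and 73.2% of the Ror2 window, against a median of 52.4% over all windows.

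The other receptors, Ptk7 and Ryk, did not pass the test. Ptk7, a receptor with an inactive kinase domain that takes part in planar polarity, read 0.29, 0.16 and 0.31 in LSC GFP+ cells against 0.24, 0.06 and -0.0037 in LSC GFP- cells. The arrays overlapped and the difference was 0.15 (95% confidence interval -0.28 to 0.58, limma adjusted p = 0.996). Ryk, a Wnt receptor related to tyrosine kinases, read -2.80, -2.43 and -2.11 against -2.94, -2.75 and -2.48. Its values spread as widely within each population as between them, with a difference of 0.28 (95% confidence interval -0.28 to 0.84, adjusted p = 0.970 in limma). For neither gene does the interval reach the 1.49 measured for Ror1.

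Vangl1 and Vangl2, the membrane proteins at the centre of the polarity complex, were each slightly above 0 at every probe, and none of the 5 probes passed the test. The brighter Vangl1 probe (chr3:101960720-101960779, minus strand) read 1.27, 1.33 and 1.16 in LSC GFP+ cells and 0.97, 0.96 and 0.81 in LSC GFP- cells. The populations did not overlap, the replicates of each lay close together, and the difference was 0.34 (SE 0.18, 95% confidence interval -0.08 to 0.76, limma adjusted p = 0.769). With the replicate number as a block, that difference passed the unadjusted threshold (limma adjusted p = 0.322). It passed also with normexp background correction (0.33) and with the test named in the methods.

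The second Vangl1 probe (chr3:101962130-101962189) read -0.53, -0.71 and -0.69 against -1.20, -0.80 and -1.34, again without overlap. Its difference was 0.47 (limma adjusted p = 0.668), and it too passed with the replicate block (limma adjusted p = 0.322). It also passed with quantile normalization (0.49), with scaling by the array median (0.53) and without LSC GFP- replicate 2 (0.62).

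Vangl2, whose loss gives open neural tubes in mice, was read by 3 probes. The brightest (chr1:173934594-173934653, minus strand) read 3.76, 3.66 and 3.72 against 3.48, 3.69 and 3.47, and the difference was 0.17 (95% confidence interval -0.25 to 0.59, limma adjusted p = 0.996). LSC GFP- replicate 2 lay among the LSC GFP+ arrays. The probe at chr1:173934502-173934561, close to the first, read 2.98, 3.27 and 2.92 against 2.70, 2.90 and 2.66. The probe at chr1:173931382-173931441 read -1.04, -0.82 and -0.93 against -1.44, -1.11 and -1.13. Both differed by 0.30 without overlap, and neither passed the test (limma adjusted p = 0.869 and 0.870).

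**Figure D2:**
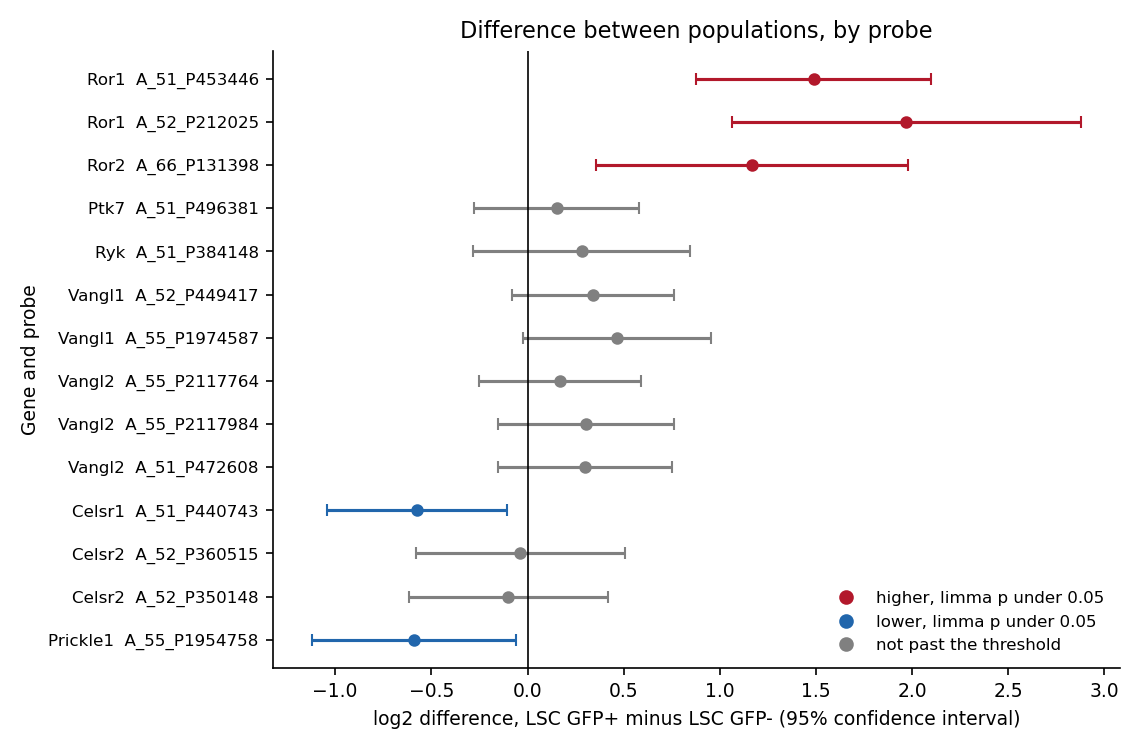
Difference between LSC GFP+ and LSC GFP- cells on the log2 scale (horizontal axis) for each of the 14 member probes tested (vertical axis), with bars for the 95% confidence interval from limma, n = 3 arrays per population. Colours mark an unadjusted limma p under 0.05. The 2 Ror1 probes and the Ror2 probe lie above 0, the Celsr1 and Prickle1 probes below, and the intervals of the other 9 include 0.

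Celsr1, the atypical cadherin that joins polarity complexes of neighbouring cells, was lower in LSC GFP+ cells. Its probe read 0.35, 0.28 and 0.09 in LSC GFP+ cells and 0.74, 1.06 and 0.65 in LSC GFP- cells. All LSC GFP+ arrays were below all LSC GFP- arrays, by at least 0.30, and the difference was -0.58 (SE 0.20, 95% confidence interval -1.04 to -0.11, limma adjusted p = 0.470). LSC GFP- replicate 2 was the highest of the 6. The call was lost when LSC GFP+ replicate 3 was left out (-0.50), and likewise for replicates 1 (-0.61) and 2 (-0.45) of LSC GFP- cells.

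Celsr2, its relative, did not pass the test at either of its probes. The probe at chr3:108194096-108194155 read 3.85, 4.13 and 3.47 against 3.86, 4.03 and 3.67. The groups lay on top of each other, with a difference of -0.037 (95% confidence interval -0.58 to 0.50, limma adjusted p = 0.996), whose sign was reversed by scaling to the array median. The probe printed above read 2.93, 2.49 and 2.49 against 2.85, 2.89 and 2.47, a difference of -0.10.

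The ratio of Celsr1 to Celsr2 within an array was lower in LSC GFP+ cells on every array, at -3.50, -3.85 and -3.38 against -3.12, -2.97 and -3.02 on the log2 scale. That difference of -0.54 gave p = 0.1 in the exact permutation test (two-sided), the smallest this design allows, and 0.4 after adjustment over the 4 ratios examined. The call for Celsr1 and its absence for Celsr2 are therefore not shown to differ from each other.

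Prickle1, a cytoplasmic partner of Vangl proteins, was lower in LSC GFP+ cells as well. It read 0.46, 1.03 and 0.61 in LSC GFP+ cells and 1.05, 1.45 and 1.37 in LSC GFP- cells. The highest LSC GFP+ array, replicate 2, came within 0.021 of the lowest LSC GFP- array, replicate 1. The difference was -0.59 (SE 0.23, 95% confidence interval -1.12 to -0.06, limma adjusted p = 0.546). It was no longer past the threshold with scaling by the array median (-0.52). The same held when replicate 1 (-0.47) or 3 (-0.55) of LSC GFP+ cells, or replicate 2 (-0.51) or 3 (-0.55) of LSC GFP- cells, was left out. Without LSC GFP+ replicate 3 or without LSC GFP- replicate 2, neither Celsr1 nor Prickle1 passed, so that the count of members that were lower went from 2 to 0.

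Prickle2, the other Prickle protein, was at the background (chr6:92325940-92325999, minus strand). It was well above background on 1 array, LSC GFP- replicate 3, at -4.18, and read between -4.67 and -4.43 on the other 5. It was not tested, and no fold is given, since both populations were mostly at background.

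**Figure D3:**
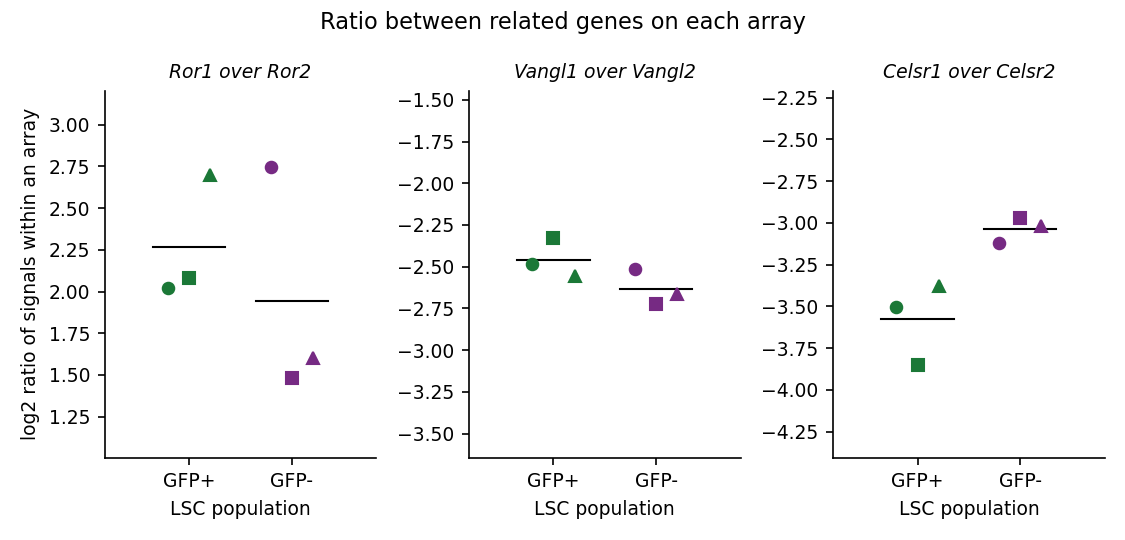
Log2 ratio of the signals of 2 related genes within each array (vertical axis, each panel spanning the same range) in LSC GFP+ (green) and LSC GFP- (purple) cells, with circles, squares and triangles for replicates 1, 2 and 3 and bars for the mean. The Celsr1 to Celsr2 ratios of the populations do not overlap, and those of the other pairs do.

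The ratio of Vangl1 to Vangl2 differed by 0.17 with overlap (exact permutation p = 0.2). Within the 3 pairs of arrays with the same replicate number it was higher in LSC GFP+ cells each time, as the Celsr1 to Celsr2 ratio was lower each time, and the exact sign-flip test over pairs gave p = 0.25 for both, the smallest that 3 pairs allow. The ratio of Prickle1 to Prickle2 is not given, since Prickle2 was at background on 5 of 6 arrays. In 4 genes with more than 1 tested probe, Ror1, Vangl1, Vangl2 and Celsr2, the ratio between probes of the same gene was compared as well. Over those 6 probe pairs the exact permutation p was between 0.4 and 1, and between 0.75 and 1 after adjustment.

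Of 42 further genes of the pathway, 41 were tested, 4 were higher in LSC GFP+ cells (against 3.38% of all genes) and 2 lower (against 4.28%). Their median difference was 0.10 on the log2 scale, and 28 of 41 were above 0, against 12544 of 25625 genes. The count of 4 went to 2 when replicate 2 of either population or replicate 3 of LSC GFP- cells was left out. The count of 2 went to 1 when replicate 2 or 3 of LSC GFP+ cells, or replicate 1 or 2 of LSC GFP- cells, was left out.

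None of the 5 ligands and partners tested passed. Wnt5a, the main ligand of Ror1 and Ror2, read 2.52, 2.34 and 2.16 in LSC GFP+ cells against 2.54, 2.76 and 2.29, a difference of -0.19 (limma adjusted p = 0.996). Wnt4, Wnt5b and Wnt11 differed by -0.18, 0.21 and 0.16. Cthrc1, a secreted partner of Wnt ligands and Ror2, did not rise above the background on any array.

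Fzd7 was the 1 Frizzled receptor of 4 that passed, at 0.98, 1.37 and 0.999 against 0.72, 0.44 and 0.49. Its populations did not overlap and the difference was 0.57 (limma adjusted p = 0.487), while its second probe gave 0.49 and did not pass. The call was lost when replicate 2 of either population (0.44 and 0.51) or replicate 3 of LSC GFP- cells (0.54) was left out. Fzd2 and the glypican Gpc4 did not pass at the brightest probe (0.50 and 0.29), but a second probe of each did, at 0.85 and 1.08 (limma adjusted p = 0.216 and 0.129). The second probe of Nfatc2 likewise passed in the other direction (-1.07), with the brightest at -0.035.

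Among the core polarity proteins outside the 10 genes, none of 8 passed. They were the Dishevelled proteins Dvl1, Dvl2 and Dvl3 (0.10, 0.15 and 0.0041), the Celsr relative Celsr3 (-0.71), the Prickle relative Prickle3 (0.03), Scrib (-0.15), Sec24b (0.10) and Ankrd6, also called Diversin (0.38). Ankrd6 was the single one of these whose populations did not overlap. Of all 25625 genes tested, 1664 were higher and 1377 lower without overlap.

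The largest difference of the pathway list was that of Dact1, a protein that binds Dishevelled and Vangl2. It read 1.72, 2.11 and 1.35 in LSC GFP+ cells against 0.51, -0.74 and -0.34 in LSC GFP- cells. The populations stood well apart, by 1.92 (SE 0.35, adjusted p = 0.129 in limma), and the second Dact1 probe gave 1.69 (adjusted p = 0.404). Smurf2, a ubiquitin ligase that acts on Prickle proteins, was higher by 0.43 (adjusted p = 0.618), at 1 of its 3 probes, and lost its call under 9 of 16 alternatives. The other 6 polarity effectors, Fuz, Intu, Wdpcp, Invs, Dact2 and Smurf1, did not pass, nor did Fat4, Dchs1 and Fjx1 of the Fat and Dachsous branch.

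Downstream of the receptors, 1 of 13 cytoskeletal and kinase effectors was higher and 2 were lower. Nfatc1, a transcription factor switched on by calcium and calcineurin, read 2.07, 1.63 and 1.33 against 0.80, 0.23 and 0.61, a difference of 1.13 (adjusted p = 0.205 in limma), and its second probe gave 1.20 (adjusted p = 0.192). Daam2, a formin that links Dishevelled to actin, read -3.19, -3.24 and -3.56 against -2.33, -1.80 and -1.70, a difference of -1.38 (adjusted p = 0.109 in limma), which was -0.69 with normexp background correction and still passed. Both stood without overlap between the populations. Mapk9, a Jun kinase, differed by -0.59 at its brightest probe (adjusted p = 0.587 in limma), and its second probe gave -0.41 and did not pass. The Mapk9 call was lost under 7 of 16 alternatives. Daam1, the close relative of Daam2, differed by 0.0036, and Rhoa, Rac1 and Cdc42, the small GTPases of this branch, by 0.14, 0.16 and 0.02.

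**Figure D4:**
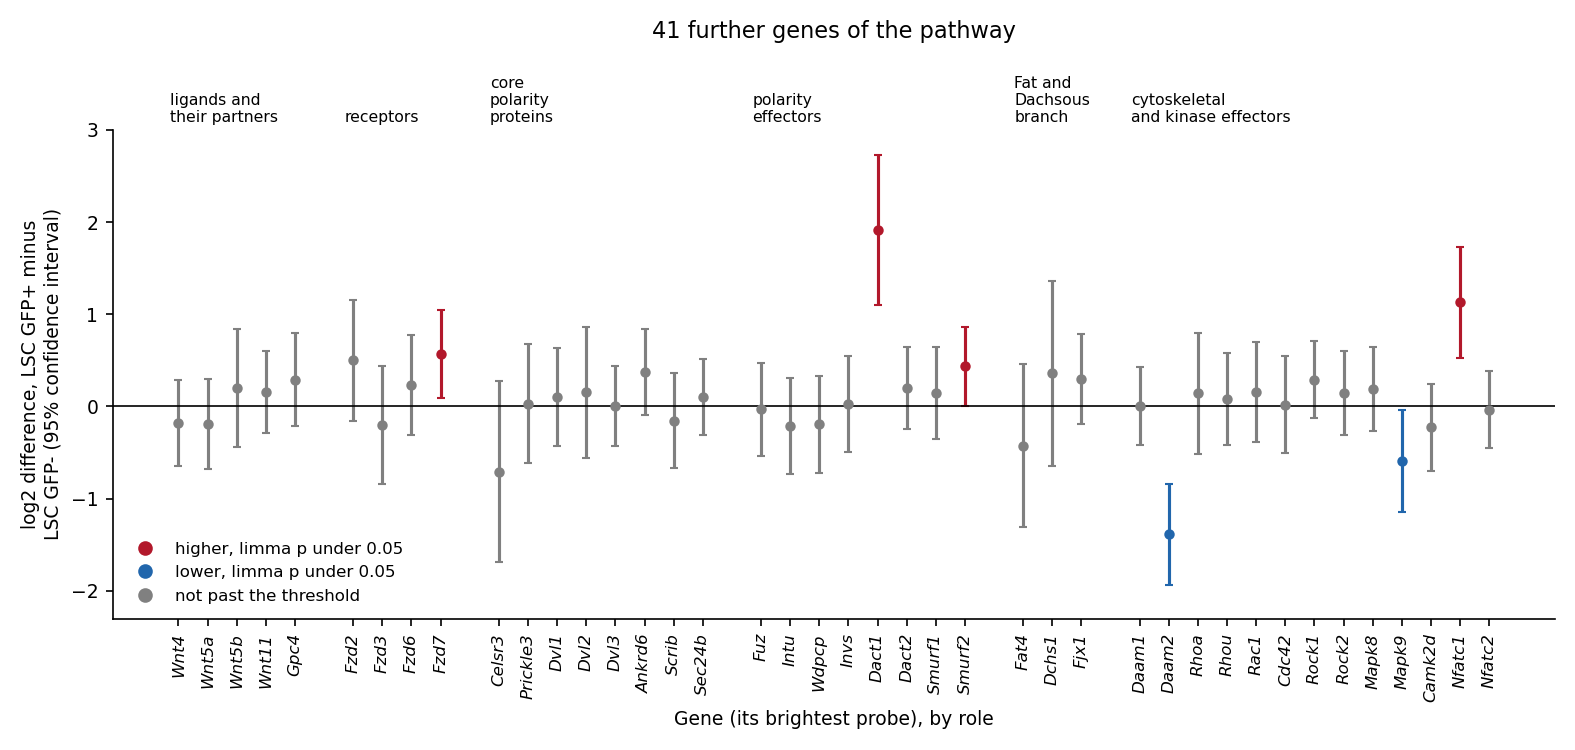
Difference between LSC GFP+ and LSC GFP- cells on the log2 scale (vertical axis, bars for the 95% confidence interval from limma, n = 3 arrays per population) for 41 further genes of the pathway, by role (horizontal axis). Fzd7, Dact1, Smurf2 and Nfatc1 lie above 0 with p under 0.05, Daam2 and Mapk9 below, and the other 35 did not pass.

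The 5 genes whose signal followed that of the first Ror1 probe most closely over the 6 arrays were Zfyve9, Smoc2, Pde4b, Zbtb10 and an intergenic RNA read by probe A_30_P01022772. Their Pearson r was between 0.994 and 0.996, the highest of 23782 genes above background on all arrays. With 6 arrays that share the split into populations, such values are a description of likeness and carry no test.

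Markers of other cell types moved with the populations too. Keratin signal was strong on every array, with Krt5 between 4.01 and 5.20 and Krt8 between 3.83 and 4.83. Of 8 basal markers, 4 were higher in LSC GFP+ cells (Krt5, Krt14, Krt15 and Dsc3), and the mean of the list was 3.29 to 3.42 in LSC GFP+ cells against 2.71 to 2.77. Of 6 luminal markers, Prom1 and Tmprss2 were lower, with means of 3.09 to 3.71 against 3.52 to 3.97. This list is not purely luminal: Prom1 encodes CD133, which the study names among prostate stem cell markers, and the study uses CD24 for all epithelium.

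Smooth muscle markers were lower in LSC GFP+ cells in 7 of 7 cases, with list means of -0.69 to -0.05 against 0.99 to 1.94. Of 12 stromal markers, 11 were tested, 7 were lower and 1, Dcn, was higher, with list means of -2.04 to -1.48 against -1.09 to 0.48. Of the 7, Twist1, Fap and Pdgfra entered the test through the LSC GFP- arrays alone, where they were high, so their calls were favoured by the filter. Postn and Twist1 were not well above background on any LSC GFP+ array. No marker of endothelium, leukocytes or nerve and glia passed, though many of these genes gave signal: 2 of 6 endothelial, 5 of 6 leukocyte and 4 of 7 nerve and glial genes were well above background on all 6 arrays. Over the whole array this held for 23782 of 36303 gene names, Ror1 not counted. Among the dimmest, Cdh5 was well above background on 1 array and Lyz2 on none.

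Celsr1, Prickle1 and Daam2 were lower where stromal and smooth muscle markers were lower, and the part of those cells in the differences was not tested. The CD49f gate is meant to leave stromal cells out, and the study found its LSC fraction to be epithelial by CD24. On these arrays, 8 of 12 stromal and 7 of 7 smooth muscle markers were well above background on all 6. So were 23782 of the 36303 gene names on the array, Ror1 not counted. Whether such cells were in the samples was not tested. Within LSC GFP- cells, replicate 1 had the highest stromal mean (0.48) and smooth muscle mean (1.94) and replicate 2 the lowest (-1.09 and 0.99). Over the same arrays Prickle1 was lowest in replicate 1 (1.05) and highest in replicate 2 (1.45). Celsr1 was highest in replicate 2 (1.06) and lowest in replicate 3 (0.65), and Daam2 was lowest in replicate 1 (-2.33) and highest in replicate 3 (-1.70). These 3 arrays of 1 population are too few to relate the genes to the markers, and no such relation was tested. Ror1, Ror2, Dact1 and Nfatc1 were higher where basal markers were higher and stromal markers lower, and the part of basal cell content in that was not tested.

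**Figure D5:**
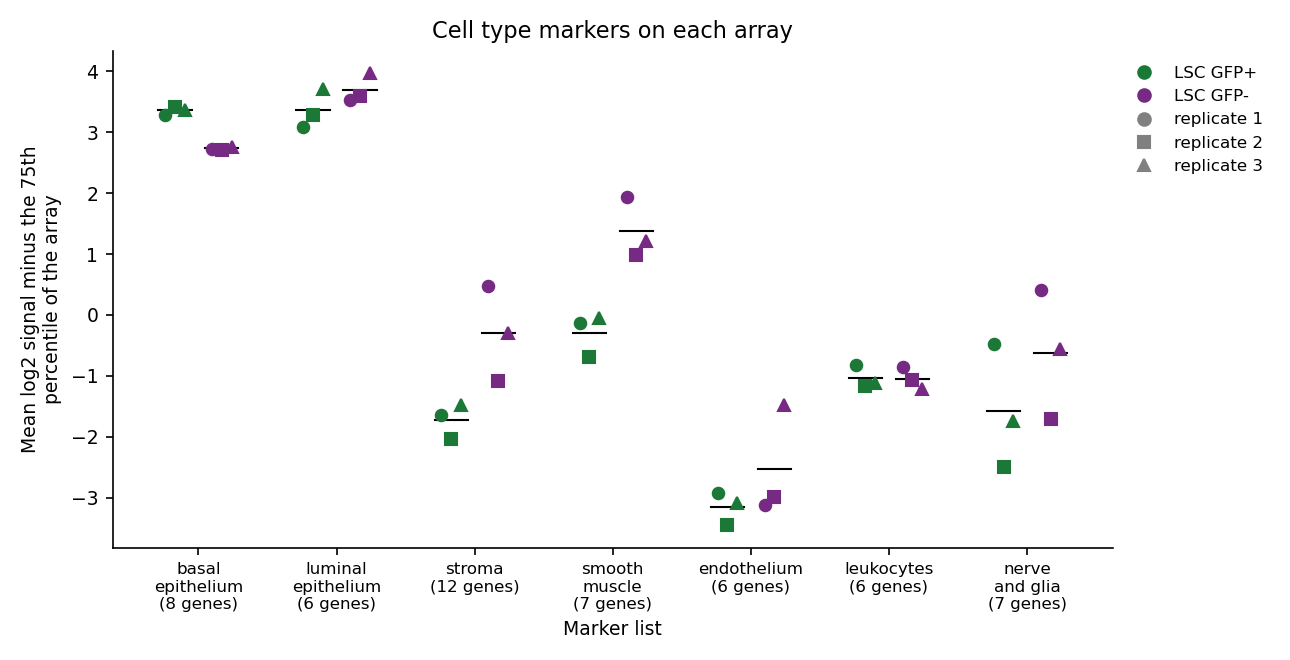
Mean over each list of cell type markers of the log2 signal minus the 75th percentile of the array (vertical axis), by list (horizontal axis), on each of the 6 arrays, with bars for the mean of 3 arrays. Basal lists lie higher in LSC GFP+ cells, stromal and smooth muscle lists lie lower, and in the luminal, endothelial, leukocyte and nerve lists the populations overlap.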

How the data were processed

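Gene expression was measured on 6 SurePrint G3 Mouse arrays with Cy3-labelled cDNA, 3 per population, after linear RNA amplification. Per the file headers, the deposited intensity values are those of Feature Extraction 11.0.1.1 (the submitters' processing notes name 10.7.3.1), on the linear scale, with background subtracted by the authors' scanner software and no normalization between arrays. All 6 arrays shared 1 slide and 1 scan, so neither could be tested as a batch. The authors' value table of the series holds the same intensity values, rounded.

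After log2 transformation, each array's 75th percentile was taken from its signals. Spots marked as outliers, 123 to 154 per array, were left out, and no spot was saturated. Between 36651 and 42123 of 55681 probes were well above background. Probes entered the test if at least 1 population had them well above background on each of its 3 arrays, which left 37005. A probe counted as such on an array when a share of over 0.5 of its spots did. The test was the moderated one of limma 3.58.1 (lmFit, eBayes; R 4.3.3), two-sided, with Benjamini-Hochberg adjustment over all probes tested. The number of arrays limits the precision. The samples are called independent by the study. The main fit did not pair them, so its p-values measure the spread between samples within each population, including any part shared by samples with the same replicate number. On simulated data for this comparison, with 37005 probes, calls were counted at the unadjusted threshold. There 90.2% of probes changed by 1 on the log2 scale and 100% of those changed by 2 were found, and 4.91% of unchanged probes were called. Recovery after adjustment is not given. Probe sequences came from the scanner files and promoter windows from RefSeq (GRCm38.p6), and the builds were not joined.

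The genes named are all 10 members with all probes, genes of the pathway list and of the marker lists that passed, and the 5 genes most like Ror1. Other genes of these lists, and second probes, were picked for mention after their values were seen. A single marker gene of the luminal list is not reported here and was left out of that list. The members and lists were chosen with earlier results of these data known.

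Samples with the same replicate number deviated together, with correlations of 0.43, 0.28 and 0.67 across probes for numbers 1, 2 and 3. The numbers, which come from the sample labels, were therefore taken to pair the samples in the replicate block and the sign-flip test, while the main fit was left unpaired. Of the differently numbered pairs, LSC GFP+ replicate 1 with LSC GFP- replicate 2 gave 0.22 and the other 5 were negative. The alternatives were scaling by the array median, quantile normalization, normexp (offset 50), the value table, 3 other filters, the methods' t-test, an intensity trend, the replicate block, the mean over a gene's probes, and each array left out in turn.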

Additional observations from a re-analysis of the deposited data

How the results depend on the processing

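Over the alternatives, 203 of 223 recomputed differences of member probes kept their direction and their side of the unadjusted threshold, 10 lost the call, 7 gained it and 3 reversed. Ror2 lost its call, and the brighter Vangl1 probe gained one, both with normexp and with the methods' t-test. Both Ror1 probes kept theirs under every alternative run, the first between 1.04 and 1.70 and the second between 0.90 and 2.21. The 3 reversals were of the brighter Celsr2 probe, which was not called, at 0.032 with scaling by the array median, 0.14 without LSC GFP+ replicate 3 and 0.053 without LSC GFP- replicate 2 (range -0.19 to 0.14 when arrays were left out). Scaling by the array median moved the median of all genes to 0.06 and the calls over all probes from 1250 higher and 1675 lower to 1471 and 1299. Quantile normalization gave 1668 and 1606, and the methods' t-test 1579 and 1219, with 0 probes after adjustment. The number of members that were higher was 1 with the filter on all 6 arrays, which leaves out Ror2. The number of members that were lower was 1 with scaling by the array median, and 0 to 2 when arrays were left out. For the pathway list, the number lower was 1 with the filter of at least 1 array, with no filter and with the methods' t-test, and 1 to 3 when arrays were left out, while the number higher was 2 to 5. Over all probes, leaving out an array gave 867 to 1355 higher and 1153 to 2788 lower, the last without LSC GFP+ replicate 1. With the replicate number as a block, 2495 probes were higher and 2985 lower, both Vangl1 probes were called (0.34 and 0.47, limma adjusted p = 0.322 for each), and no other member probe changed its call. Dact1, Nfatc1 and Daam2 kept their calls under all 16 alternatives run for them. The ratios of Ror1 to Ror2, Vangl1 to Vangl2 and Celsr1 to Celsr2 kept their sign with the other scalings and background correction, the value table, the mean over probes and each array left out, and were not recomputed for the filters, the methods' t-test or the trend. Dim signal limits Ror2 and Prickle2. The cause of these changes was not tested.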
